A study of Mus musculus with 14 samples.

Results

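The genes described here are 8 genes used as markers of circulating monocytes: Ly6c2, Plac8, Vcan, F10 and Ms4a4c, which are highest in classical monocytes or shared by both classes, Ly6c1, a near-identical neighbour of Ly6c2, and Cd300e and Nr4a1, which mark or control patrolling monocytes. They were picked by symbol from the 14084 genes of the deposited count table. All 8 were in the table, and all 8 were among the 13861 genes that passed the filter on low counts. The chemokine receptor Ccr2 was left out of the members and appears only as a neighbour for comparison.

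RNA was measured in bulk in cells that the labels call microglia, isolated by FACS from the cerebral cortex of C57BL/6 mice labelled as 8 to 10 weeks old. The 7 groups of 2 libraries each were sham, and days 1, 3, 7, 21, 60 and 90 after focal ischemic stroke. Sham mice received only a lesion of the skull surface. In stroke mice the distal middle cerebral artery was tied off permanently, and both common carotid arteries were closed for 7 min. No genetic change is labelled in any group, and all groups shared the same sort label. The sources used here give neither the gate of the sort nor the time at which sham mice were sampled. Whether the 2 libraries of each group stem from different mice is not labelled, and p-values then cover only the variation between these libraries, which may be technical.

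Mouse blood monocytes come in 2 main classes. Classical monocytes carry much Ly6C protein, enter inflamed tissue through Ccr2 and can become macrophages there; patrolling monocytes carry little Ly6C, crawl along the vessel wall and need the nuclear receptor Nr4a1 to form. Microglia are a separate lineage, seeded before birth, so these genes are normally used in brain samples to see blood monocytes or their offspring beside microglia. In bulk RNA, fewer cells of a type and less RNA per cell cannot be told apart.

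The sham libraries stood apart from the rest and went against their label. The summed level of 10 microglia markers was 1056 to 18727 CPM (counts scaled to library size) in the 12 stroke libraries, median 3276, against 363 and 419 CPM in the sham libraries. Tmem119, a microglia marker, was 41.6 to 350 CPM in stroke libraries, against 16.9 and 2.48 CPM in sham. P2ry12, another marker of the list, overlapped: it was 22.9 to 358 CPM in stroke libraries, against 47.5 and 17.6 CPM in sham. The 12 neutrophil markers in the table summed to 367 to 6559 CPM in stroke libraries, against 16627 and 29221 CPM in sham, and 3 erythroid markers to 0 to 4.43 CPM, against 200.4 and 207 CPM in sham. Markers of border-associated macrophages, 8 of 8 in the table, summed to 237 to 2282 CPM in stroke libraries, against 37.4 and 40.4 CPM in sham. Ms4a7 is 1 of the 8 and made up most of the sum at day 60. With TMM scaling it was 1331 and 2591 CPM there, where the list summed to 1560 and 2063 CPM without TMM. At day 21 it was 54.5 and 127 CPM, where the list summed to 237 and 414 CPM. No defining marker of these 4 lists was at 0 in both sham libraries. Every fold change against sham below therefore compares libraries that also differ in these markers, and their part in the results was not tested. Total counts were 15254983 to 28758420 in the libraries numbered replicate 1 and 100625099 to 191692779 in those numbered replicate 2, so that the replicate number also separates shallow from deep libraries.

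**Figure D1:**
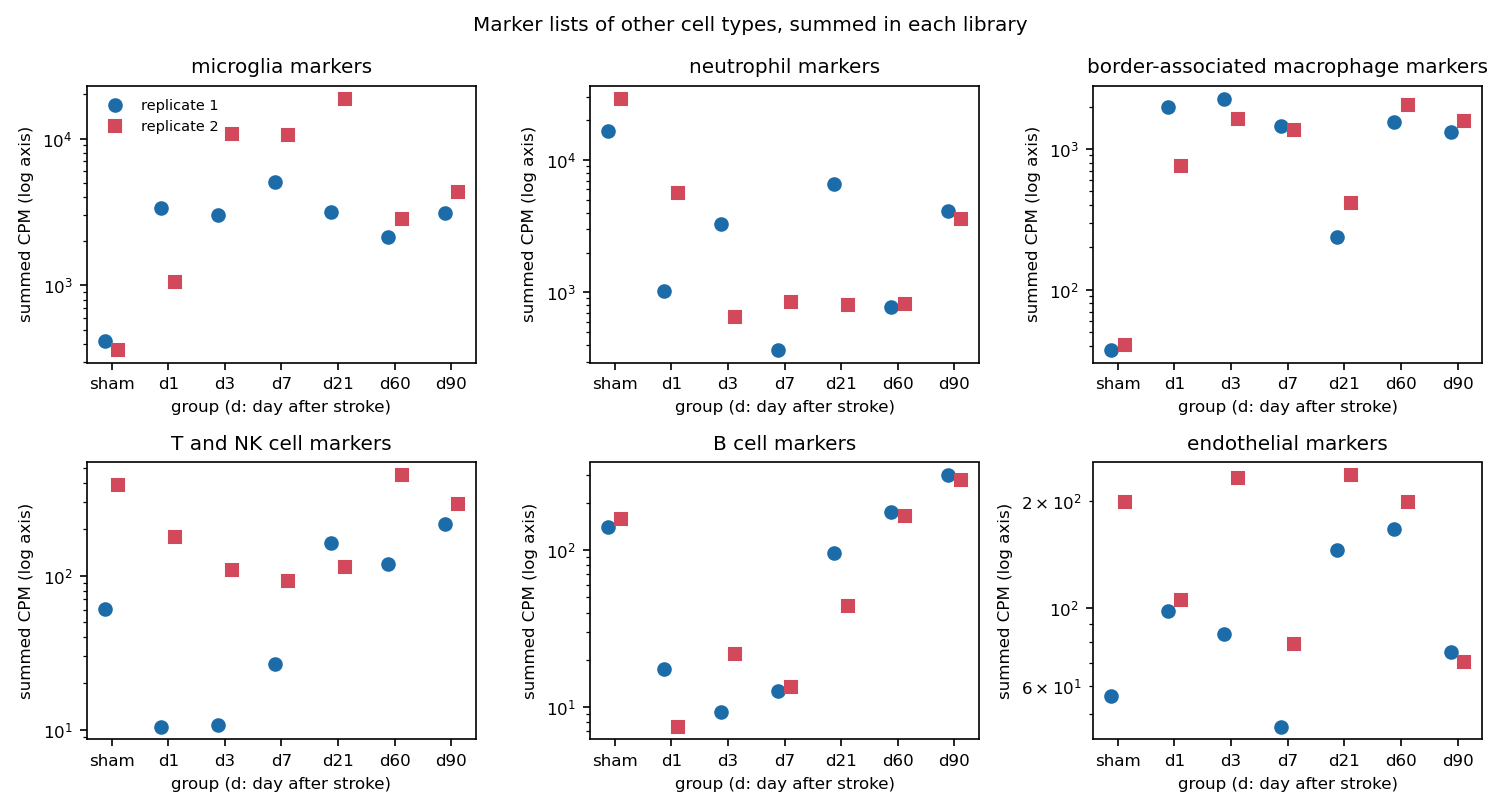
Summed CPM (log axis) of marker lists of 6 cell types in each library, by group; circles are replicate 1 and squares replicate 2. In sham, microglia markers (363 and 419 CPM) and border-associated macrophage markers (37.4 and 40.4 CPM) were below every stroke library, and neutrophil markers (16627 and 29221 CPM) above every stroke library.

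Ly6c1 and Ly6c2 are neighbouring genes on chromosome 15 whose products both carry the Ly6C epitope. Ly6c2 is the form of monocytes, and Ly6c1 is known in the mouse mainly from endothelium and some lymphocytes. Their coding sequences are shown because the division of counts between these 2 genes differed between the libraries numbered replicate 1 and those numbered replicate 2. In the GENCODE M21 transcripts Ly6c1-201 and Ly6c2-201 both coding sequences are 396 bases long, differ at 9 bases and are 97.7% identical, with 1 identical run of 188 bases. Bases 1 to 150 from the start codon hold 6 of the 9 differences, which are in capitals:
Ly6c1: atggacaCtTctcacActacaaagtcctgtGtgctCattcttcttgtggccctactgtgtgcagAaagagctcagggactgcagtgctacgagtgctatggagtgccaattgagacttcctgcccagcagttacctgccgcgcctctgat
Ly6c2: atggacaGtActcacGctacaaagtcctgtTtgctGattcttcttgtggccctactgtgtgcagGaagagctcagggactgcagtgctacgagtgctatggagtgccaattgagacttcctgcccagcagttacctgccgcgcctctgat
Of all 50-base stretches of the 2 transcripts, 31.7% of those in Ly6c1 and 32.6% of those in Ly6c2 also occur in the other gene.

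Ly6c1 was nearly absent from 1 set of libraries and abundant in the other. It had 1, 56, 74, 17, 61, 37 and 43 counts in the replicate 1 libraries of sham and days 1, 3, 7, 21, 60 and 90. In the replicate 2 libraries of the same groups it had 146983, 38548, 28100, 20809, 15947, 38745 and 11905 counts. The difference in depth between the sets was 6.60 to 9.19 times, far less than the difference in Ly6c1. Of the counts on the pair, Ly6c1 held 0.0170% to 2.22% in replicate 1 libraries and 43.7% to 74.7% in replicate 2 libraries, with no overlap of the sets in any group. The same division was seen in 45 genes for which every replicate 2 library was above 10 times every replicate 1 library. Among these 45 genes, 18 (40%) share at least 50% of their 50-base stretches with other genes, against 69 (1.40%) of the 4932 other genes at or above 10 CPM that could be looked up. Ly6c1 is among the 45 but not among the 18: over all its transcripts, 32.8% of its 50-base stretches occur in other genes. The cause of the division was not tested. The 12 endothelial markers listed were higher in replicate 2 than in replicate 1 in 6 of 7 groups: they summed to 46.2 to 166 CPM in replicate 1 libraries and 70.1 to 236 CPM in replicate 2 libraries. Ly6a is 1 of the 12. In sham replicate 2 the list summed to 199 CPM, where Ly6a was 190 and Cldn5 0.915 CPM with TMM scaling. The part of endothelial cells in the counts of Ly6c1 was not tested.

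**Figure D2:**
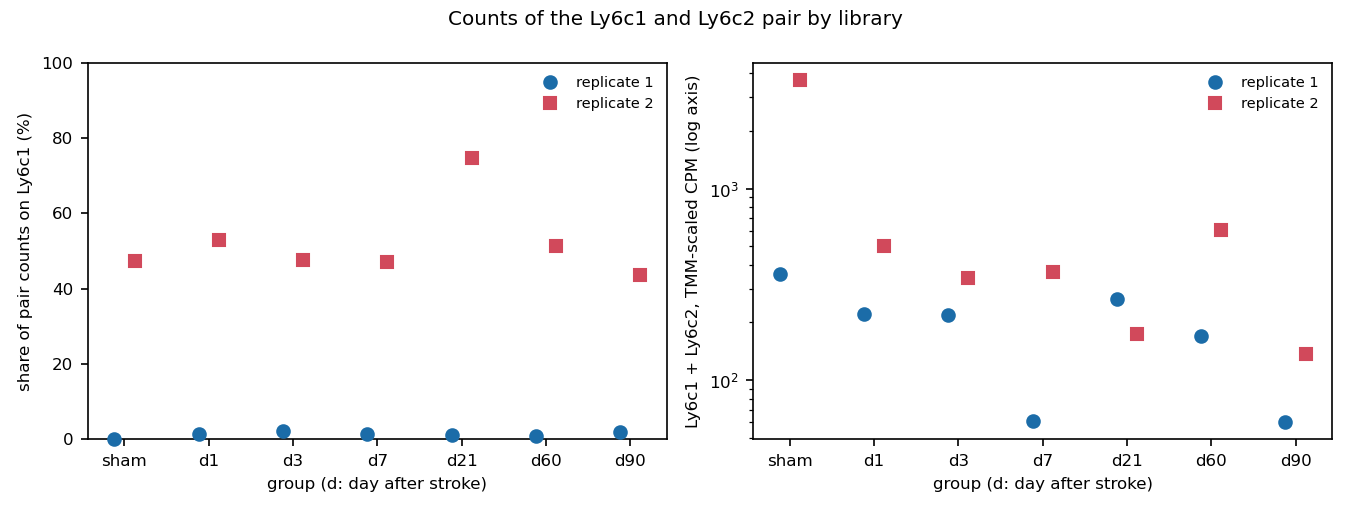
Left, share of the counts of the Ly6c1 and Ly6c2 pair that fell on Ly6c1 (%), by group and library. Right, TMM-scaled CPM of both genes together (log axis). Circles are replicate 1 and squares replicate 2; the share was at most 2.22% in replicate 1 libraries and at least 43.7% in replicate 2 libraries.

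No change of Ly6c1 passed the test in any comparison. Its log2 fold changes against sham ran from -4.84 ± 4.39 (SE) at day 90 to -2.48 ± 3.94 at day 60, with edgeR adjusted p of 0.529 and 0.736. Without sham replicate 2, whose Ly6c1 level was 1747 CPM against 0.0606 CPM in sham replicate 1, the sign turned in all 6 comparisons with sham, to values from 8.93 at day 90 to 11.30 at day 60. The direction of Ly6c1 after stroke could not be read from these counts. For Ly6c2 the levels below are given as counted, and beside them those of both genes added together.

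All comparisons below come from 1 model over the 14 libraries, edgeR's quasi-likelihood test, with p-values adjusted by the Benjamini-Hochberg method over all 13861 genes and a change called at an adjusted p under 0.05. Levels are CPM scaled by edgeR's TMM factors. The comparisons of single times with sham share the same 2 sham libraries. At day 1, 1 of 8 members was called lower and none higher, where 1.37% of all genes were called lower and 3.18% higher. At day 3, 1 was lower and none higher, against 3.07% and 5.20% of all genes. At day 7, 3 were lower and none higher, where 5.63% of all genes were lower and 7.00% higher.

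At day 21, 1 member was lower and none higher, where 1.44% of all genes were lower and 5.0% higher. At day 60 edgeR called none of the 8 in either direction, where it called 2.89% of all genes lower and 4.96% higher. There 1 of 8 had an unadjusted p under 0.05, DESeq2 called 1 and limma-voom 0. DESeq2 called more of all genes than edgeR at every time, with the numbers given below. At day 90, 1 member was lower and none higher, against 2.73% and 5.12% of all genes. For the mean of the 6 times, 4 of 8 members were lower than in sham and none higher, where 11.3% of all genes were lower and 8.56% higher. The members' median log2 fold change was -1.72, -2.07, -3.26, -2.41, -1.77 and -2.94 at days 1, 3, 7, 21, 60 and 90, beside 0.04, 0.15, 0.06, 0.06, 0.14 and 0.11 over all genes tested. These counts depended on single libraries, as did those over all genes: for the mean of the 6 times, without sham replicate 2 only Cd300e remained called, and 1022 of all genes were called, against 2749 with all libraries.

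**Figure D3:**
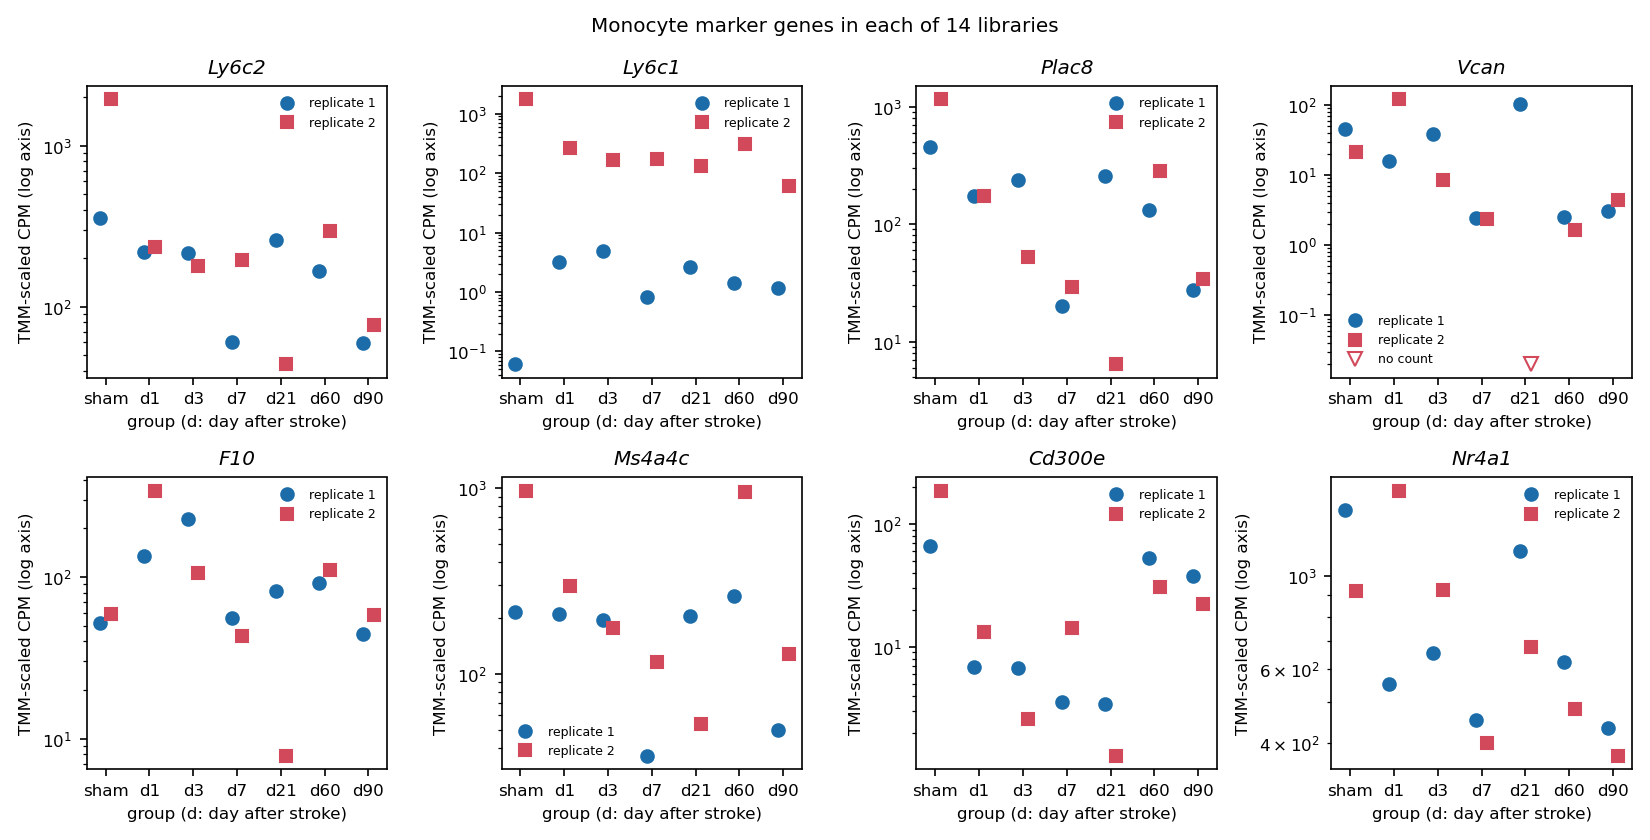
TMM-scaled CPM (log axis) of the 8 genes in each of the 14 libraries, by group; circles are replicate 1, squares replicate 2, and the open triangle marks 0 counts. All 12 stroke libraries lie below both sham libraries for Ly6c2, Plac8 and Cd300e; those of F10 and Nr4a1 do not.

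Ly6c2, the Ly6C gene of classical monocytes, was lower in all 12 stroke libraries than in either sham library. It was 357 and 1947 CPM in the sham libraries, 219 and 237 on day 1, 215 and 180 on day 3, 60.2 and 195 on day 7, 261 and 43.8 on day 21, 168 and 295 on day 60, and 59.2 and 76.8 on day 90, with replicate 1 given before replicate 2. The sham libraries differed from each other 5.45-fold, more than the libraries of any other group but day 21, which were 5.96-fold apart. By group means the order was sham, day 60, day 1, day 3, day 21, day 7 and day 90, and the libraries of neighbouring groups overlapped except between sham and day 60 and between days 1 and 3.

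The change of Ly6c2 against sham was called for 3 contrasts: day 7, with a log2 fold change of -3.18 ± 0.94 (SE; edgeR adjusted p = 0.0449), day 90, with -4.08 ± 0.98 (edgeR adjusted p = 0.0284), and the mean of the 6 times, with -2.90 ± 0.54, 7.44-fold lower (edgeR adjusted p = 0.00399). At days 1, 3, 21 and 60 it was -2.34, -2.55, -2.92 and -2.32, with edgeR adjusted p of 0.159, 0.103, 0.0806 and 0.127, where DESeq2 called all 4, with adjusted p of 0.0371, 0.0148, 0.00494 and 0.0274. limma-voom did not call day 7 (-2.86, adjusted p = 0.0565). Without either day 21 library the day 3 value was called, at -2.52 and -2.55, and without day 21 replicate 1 the day 21 value was -4.67 (edgeR adjusted p = 0.0181). All 3 edgeR calls were lost without sham replicate 2: without it Ly6c2 was at -1.21 for the mean of the 6 times (edgeR adjusted p = 0.295), -1.49 at day 7 and -2.40 at day 90. The day 7 call was also lost without any 1 of 10 other libraries, those of days 1, 3, 7, 60 and 90, with values between -4.26 and -2.56, and the day 90 call without either day 90 library, at -3.86 and -4.19. With the counts of Ly6c1 and Ly6c2 added, the replicate 2 libraries of days 1, 7 and 60 held 503, 367 and 608 CPM, against 357 and 3694 CPM in sham, and so were above the lower sham library. In that form the mean of the 6 times was -3.09 (edgeR adjusted p = 0.00658), day 90 was -4.36 (0.0438) and day 7 was -3.24 and not called (0.0780). Within replicate 1 libraries the difference from sham was -0.70 at day 1 and -0.45 at day 21, and within replicate 2 libraries -3.04 and -5.47 at the same times.

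Plac8, a small cysteine-rich protein abundant in classical monocytes and granulocytes, followed a similar course. It was 448 and 1153 CPM in the sham libraries, 172.6 and 174 on day 1, 236 and 52.1 on day 3, 19.9 and 28.98 on day 7, 254 and 6.39 on day 21, 132 and 282 on day 60, and 27.3 and 34.2 on day 90. All 12 stroke libraries were below both sham libraries. The levels of days 7 and 90 lay close together, while the libraries of day 21 were 39.8-fold apart and held both the second highest and the lowest stroke value.

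Plac8 was called lower at day 7, at -5.03 ± 1.37 on the log2 scale (edgeR adjusted p = 0.0376), and for the mean of the 6 times, at -3.16 ± 0.72, 8.97-fold lower (edgeR adjusted p = 0.0118). At day 90 it was -4.70 ± 1.35 and missed the threshold (edgeR adjusted p = 0.0569), where DESeq2, limma-voom and fits without either day 21 library called it, the last at -4.64 and -4.71. The mean of the 6 times was not called without sham replicate 2 (-2.33, edgeR adjusted p = 0.169). The day 7 call was lost without either sham library (-5.52 without replicate 1 and -4.20 without replicate 2), without either day 7 library (-4.78 and -5.33), and without day 1 replicate 1, either day 60 or either day 90 library, at -5.03 to -5.00. Without either day 21 library Plac8 was called at day 3, at -2.47 and -2.48, and without day 21 replicate 1 it was called at day 21, at -6.93 (edgeR adjusted p = 0.00387). S100a8, which neutrophils and classical monocytes both express, was also highest in sham: it was 5.57 to 1301 CPM in stroke libraries, against 3397 and 12210 CPM in sham.

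Vcan encodes versican, a large proteoglycan of the extracellular matrix that classical monocytes transcribe and that oligodendrocyte precursors also make. It was 45.3 and 21.3 CPM in the sham libraries, 16.1 and 121 on day 1, 38.6 and 8.50 on day 3, 2.47 and 2.37 on day 7, 102 and 0 on day 21, 2.52 and 1.67 on day 60, and 3.03 and 4.43 on day 90. The 6 libraries of days 7, 60 and 90 lay below both sham libraries and below every library of days 1 and 3. At day 21, 1 library had 2335 counts of Vcan and the other had none among 116539697 counts, a depth at which 3 counts correspond to 0.0257 CPM.

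edgeR called no change of Vcan in any comparison. Its log2 fold changes at days 7, 60 and 90 were -3.78 ± 2.42, -4.00 ± 2.45 and -3.15 ± 2.35, with edgeR adjusted p of 0.339, 0.331 and 0.436, and days 60 and 90 against days 1 and 3 gave -3.84 ± 1.71 (0.318). With both day 21 libraries left out, the values were -3.78, -4.00, -3.15 and -3.85 and all 4 were called, with edgeR adjusted p of 0.0209, 0.0230, 0.0460 and 0.00956; leaving out either day 21 library alone had the same result. For the mean of the 6 times, Vcan was at -1.63 (edgeR adjusted p = 0.483), and at -4.13 (0.000969) without day 21 replicate 1. At day 21 itself it was 0.61 ± 2.17 (edgeR adjusted p = 0.895); without replicate 1 only the library with 0 counts remains at that time, and the value for the mean of the 6 times then rests in part on it. The day 21 library with high Vcan also had 2173 CPM of 11 dendritic cell markers and 6559 CPM of neutrophil markers, against 93.6 and 807 CPM in the other library of that day. Oligodendrocyte precursor markers, 5 of 7 in the table, summed to 0.473 to 31.5 CPM in stroke libraries, against 0 and 1.48 CPM in sham.

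F10, coagulation factor X, the protease that cuts prothrombin, was above the sham libraries more often than below them. It was 52.02 and 59.1 CPM in the sham libraries, 135 and 341 on day 1, 229 and 105 on day 3, 55.9 and 42.9 on day 7, 82.3 and 7.82 on day 21, 91.2 and 111 on day 60, and 44.3 and 58.1 on day 90. The libraries of days 1, 3 and 60 were all above both sham libraries, 7 of 12 stroke libraries were above both and 3 below both.

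The log2 fold change of F10 was 2.10 ± 0.84 at day 1 and 1.59 ± 0.82 at day 3, with edgeR adjusted p of 0.173 and 0.244, so neither was called. At days 60 and 90 against days 1 and 3, F10 was at -1.47 ± 0.58 (edgeR adjusted p = 0.226). With both day 21 libraries left out, the day 1 value of 2.10 (edgeR adjusted p = 0.0384) and the later against earlier value of -1.47 (0.0471) were called, as they were without either one of them. At day 21 F10 was -0.30, and -2.79 without replicate 1 of that day (edgeR adjusted p = 0.0248).

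Ms4a4c, a tetraspan membrane protein of the MS4A family found on monocytes and induced by interferon, was uneven within groups. It was 216 and 967 CPM in the sham libraries, 209 and 297 on day 1, 196 and 177 on day 3, 36.3 and 116 on day 7, 204 and 54.1 on day 21, 264 and 948 on day 60, and 49.9 and 128 on day 90. Day 60 replicate 2 was nearly at the level of the higher sham library, and 9 of 12 stroke libraries were below both sham libraries.

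Only the mean of the 6 times was called for Ms4a4c, at -1.79 ± 0.58 (edgeR adjusted p = 0.0497). This call was lost without either sham library, at -2.46 without replicate 1 and -0.34 without replicate 2 (edgeR adjusted p = 0.0570 and 0.839), and without 9 single libraries of days 1, 3, 7, 21, 60 and 90, at -1.89 to -1.67. It was also lost with limma-voom (-1.53, adjusted p = 0.146), with upper-quartile scaling (-1.63, edgeR adjusted p = 0.0640) and with the replicate number as a block (-1.59, edgeR adjusted p = 0.0562). At day 7 Ms4a4c was -2.96 ± 0.94 (edgeR adjusted p = 0.0593), which DESeq2 called (-3.01) and which edgeR called with the replicate block (-2.91, adjusted p = 0.0386) and without either day 21 library, at -2.92 and -2.96. DESeq2 also called it at day 90 (-2.77, adjusted p = 0.00963). The day 60 difference was 0.03 ± 0.88 (edgeR adjusted p = 0.989), with a sign that changed between scalings. Of its sequence, 8.19% of the 50-base stretches occur in other genes, mostly in Ms4a4b, and 28 bases of its exons overlap a gene on the opposite strand; the counting is not stated to use strand.

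Cd300e, an activating receptor of patrolling monocytes that signals through an adaptor protein, was the member with the most calls. It was 66.6 and 186 CPM in the sham libraries, 6.81 and 13.2 on day 1, 6.71 and 2.57 on day 3, 3.58 and 14.2 on day 7, 3.45 and 1.30 on day 21, 52.7 and 30.9 on day 60, and 37.8 and 22.3 on day 90. All 12 stroke libraries were below both sham libraries. The 4 libraries of days 60 and 90 were above all 8 libraries of days 1 to 21. None of its 50-base stretches occurs in another gene.

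The log2 fold change of Cd300e against sham was -3.66 ± 0.85, -4.79 ± 0.90, -3.82 ± 0.86 and -5.76 ± 0.94 at days 1, 3, 7 and 21, 12.6-, 27.6-, 14.2- and 54.0-fold lower, with edgeR adjusted p of 0.0322, 0.00964, 0.0165 and 0.00635. At days 60 and 90 it was -1.60 ± 0.78 and -2.07 ± 0.80, with edgeR adjusted p of 0.214 and 0.127. The mean of the 6 times was -3.62 ± 0.47 (edgeR adjusted p = 0.000600). It stayed called without each library in turn, from -4.13 to -2.69 with an edgeR adjusted p of at most 0.0253. The calls at single times were less firm: without sham replicate 2, Cd300e was -2.73, -3.86, -2.90 and -4.83 at days 1, 3, 7 and 21, with edgeR adjusted p of 0.159, 0.0603, 0.0874 and 0.0529. Leaving out sham replicate 1 (-4.20), either day 1 library (-3.26 and -4.21) or either day 90 library (-3.65 each) ended the day 1 call. The day 3 call was lost without day 3 replicate 2 (-4.23), the day 7 call without day 7 replicate 1 (-3.15) and the day 21 call without day 21 replicate 2 (-5.19).

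The comparison of days 60 and 90 with days 1 and 3 does not use the sham level, though sham enters the fit's estimate of spread. There Cd300e was 2.39 ± 0.57 higher on the log2 scale, 5.22-fold (edgeR adjusted p = 0.0496), and was the 1 member of 8 called higher, with none called lower. Of all genes, 1.77% were called higher and 0.844% lower in that comparison. The call sat at the threshold: it was lost without any 1 of the 10 libraries of sham and days 1, 3, 60 and 90, with values from 2.11 to 2.80 and edgeR adjusted p from 0.0510 to 0.170, while the value stayed positive throughout. In the same comparison markers of B cells (6 of 7 called higher) and of T and NK cells (8 of 12) were higher too. B cell markers summed to 166 to 300.3 CPM in the libraries of days 60 and 90, against 7.53 to 21.8 CPM in those of days 1 and 3, and their part in the result was not tested. In the test of any difference among the 7 groups, Cd300e was the 1 member called (edgeR adjusted p = 0.0106), where 7.21% of all genes were. In the test of any difference among the 6 times after stroke, which leaves sham out of the contrast, edgeR called none of the 8, against 0.866% of all genes. Cd300e had an unadjusted p of 0.00185 and an edgeR adjusted p of 0.106. Of the 8, 3 had an unadjusted p under 0.05, DESeq2 called 2 and limma-voom 0. DESeq2 and limma-voom both called more of all genes than edgeR in this test.

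Nr4a1, the nuclear receptor Nur77 that patrolling monocytes need to form and that many cells also induce within minutes of stimulation, was highly expressed throughout. It was 1439 and 921 CPM in the sham libraries, 553 and 1599 on day 1, 657 and 925 on day 3, 455 and 399 on day 7, 1147 and 677 on day 21, 623 and 482 on day 60, and 434 and 373 on day 90. The libraries of days 7, 60 and 90 were all below both sham libraries, and days 1, 3 and 21 each had 1 library below both sham libraries and 1 within or above their range.

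edgeR called no change of Nr4a1. At days 7 and 90 its log2 fold changes were -1.47 ± 0.55 and -1.55 ± 0.55 (edgeR adjusted p = 0.101 and 0.105), where DESeq2 gave -1.54 and -1.61 and called both. Without day 1 replicate 2, the library with the highest Nr4a1, edgeR called Nr4a1 at day 7 (-1.47), day 90 (-1.55) and for the mean of the 6 times (-1.03, edgeR adjusted p = 0.0354); the mean was -0.87 with it (0.136). Without day 1 replicate 1, the day 7 value of -1.46 was called (edgeR adjusted p = 0.0499).

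**Figure D4:**
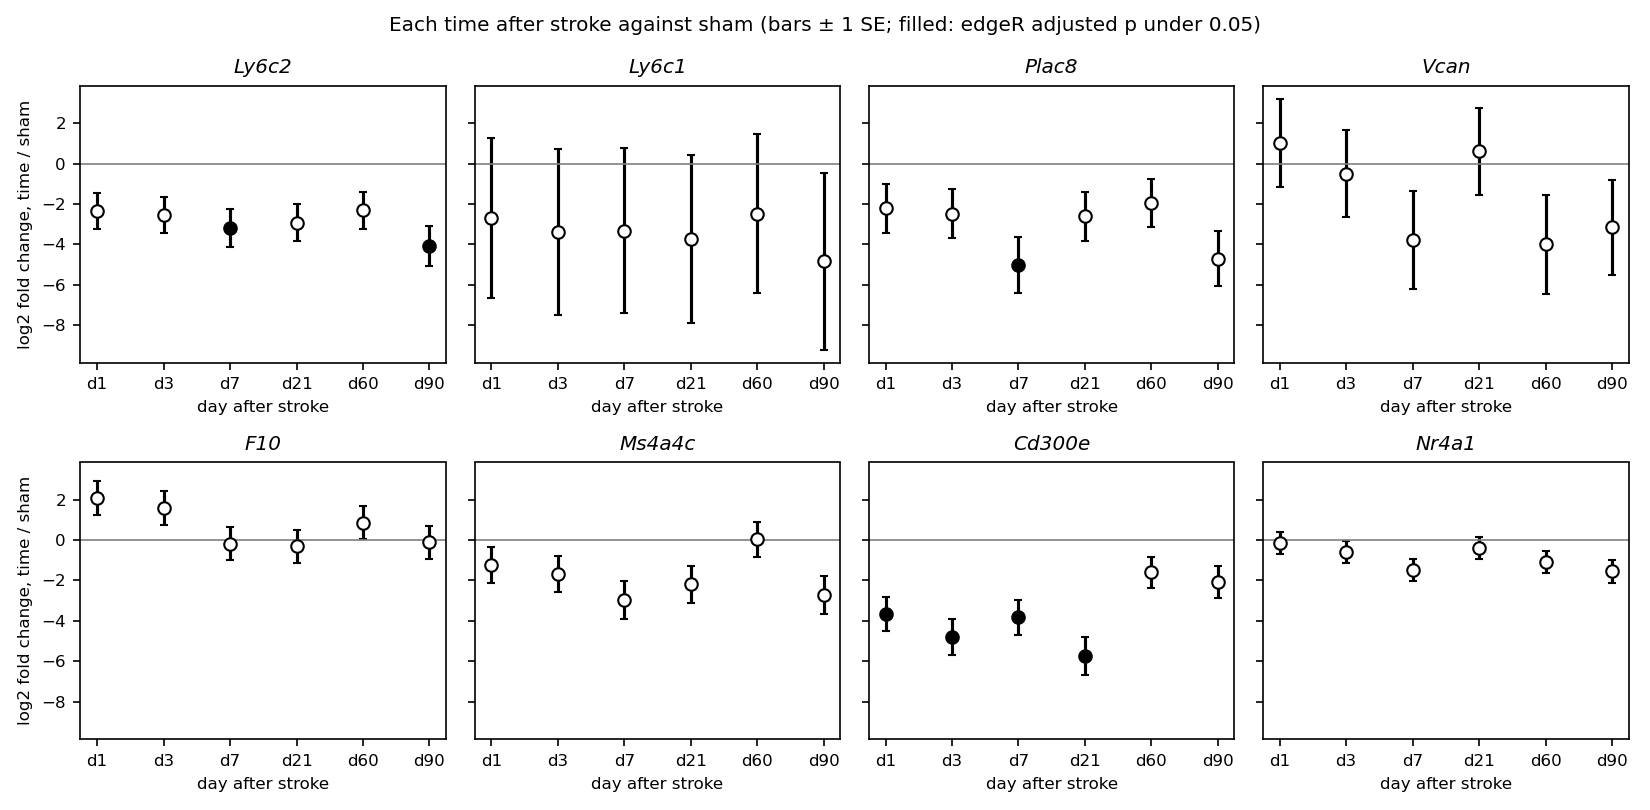
Log2 fold change of each gene at each time after stroke against sham, with bars of 1 SE; filled points have an edgeR adjusted p under 0.05. Filled points are Cd300e at days 1, 3, 7 and 21, Ly6c2 at days 7 and 90, and Plac8 at day 7.

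The patterns of single libraries showed where members were alike. Day 21 replicate 2 held the lowest value of 5 members (Ly6c2, Plac8, Cd300e, Vcan and F10), and it also had the highest summed microglia markers, 18727 CPM. Day 1 replicate 2 held the highest value of Vcan, F10 and Nr4a1, and sham replicate 2 that of Ly6c2, Ly6c1, Plac8, Cd300e and Ms4a4c. Levels per kilobase used the length of all GENCODE M21 exons of a gene together, which can far exceed 1 transcript. For Ly6c2 this length is 2740 bases, where the transcript Ly6c2-201 has 822. The order of genes by these levels therefore depends on the length used, and Ly6c1 was left out. On this length, mean levels in stroke libraries were 198 CPM for Nr4a1, 128 for Ms4a4c, 74.3 for Plac8, 61.1 for Ly6c2, 39.8 for F10, 7.80 for Cd300e and 1.74 for Vcan. In sham libraries the same levels were 336, 338, 503, 420, 20.3, 60.6 and 2.303 CPM per kilobase.

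For each member the genes with the most similar pattern were searched among 7601 genes by Pearson's r of log2 CPM over the 14 libraries, as a description of libraries that share depth and cell content. Ly6c2 was most like Fam49b (r = 0.930), Sirt7 and Cyp4f18, and Plac8 most like Gm9733 (r = 0.961), Cdk2ap2 and Ifitm6. Cd300e was most like Zdhhc20 (r = 0.954), Abi1 and Cdadc1, and Ms4a4c most like Isg20 (r = 0.941), Ncf4 and Ifitm3, of which Isg20 and Ifitm3 are induced by interferon. F10 was most like Isy1 (r = 0.965), Adora2b and Uck2, Nr4a1 like B4galt3 (r = 0.946), Ist1 and Arih2, and Vcan like Mvd (r = 0.919), Tmem8 and Ltb4r1. For these 7 members r within the 7 libraries of each replicate number was at least 0.847. Ly6c1 was most like Ahsa2 (r = 0.960), Ppia and Rps6, but r with Ahsa2 was 0.830 and 0.478 within replicate 1 and within replicate 2 libraries.

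Other genes of classical monocytes were lower than in sham where any were called, with 1 exception. Of 19 described, all tested, none was called at days 1 and 21 by edgeR, where 6 and 9 had an unadjusted p under 0.05, DESeq2 called 5 and 7 and limma-voom 0 and 7. DESeq2 called more of all genes than edgeR at both times, and limma-voom did so at day 21. At day 3 only Cd14, the lipopolysaccharide co-receptor, was called and was higher, at 2.29 ± 0.63, where 5.20% of all genes were higher. At day 7, 3 of 19 were lower: Hp, haptoglobin (-6.67 ± 1.505), Ifitm6 (-4.71 ± 1.31) and S100a6 (-3.99 ± 1.15). Day 60 had 2 lower, fibronectin Fn1 (-4.15 ± 0.91) and F13a1, a subunit of coagulation factor XIII (-3.93 ± 0.95), and day 90 had 3, S100a6 (-4.95 ± 1.20), Fn1 (-3.19 ± 0.87) and the transcription factor Klf4 (-2.78 ± 0.75). Of all genes, 5.63%, 2.89% and 2.73% were lower at days 7, 60 and 90. For the mean of the 6 times 7 of 19 were lower and none higher, where 11.3% of all genes were lower. The list median was -1.49 beside 0.09 over all genes. At days 60 and 90 against days 1 and 3, 4 were lower: Thbs1 (-4.36 ± 0.96), Fn1 (-4.27 ± 0.65), Tgfbi (-2.57 ± 0.57) and Klf4 (-2.18 ± 0.52). In that comparison 0.844% of all genes were lower and 1.77% higher. Ccr2 was not called at any time; it was 21.9 to 891 CPM in stroke libraries, against 960 and 565 CPM in sham. Without either sham library the counts at days 3, 7, 60 and 90 were 0, and those for the mean of the 6 times were 2 without replicate 1 and 1 without replicate 2; those for later against earlier times were 1 and 2.

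Other genes of patrolling monocytes went in both directions. Of 20 listed, 18 were in the table and tested. Klf2, a transcription factor of quiescent leukocytes and vessels, was lower at all 6 times, from -5.08 ± 0.80 at day 90 to -2.92 ± 0.72 at day 1. Eno3, a muscle-type enolase, was called lower at days 1, 3, 7 and 21, at -2.30, -2.74, -3.21 and -2.32. It was called higher at days 60 and 90 against days 1 and 3, at 1.87 ± 0.37. Cd300e was called in the same direction in these 5 comparisons. In the later against earlier comparison Eno3 was the 1 gene of 18 called higher, and Hes1 was the 1 called lower, where 1.77% of all genes were higher and 0.844% lower. Ace, angiotensin-converting enzyme, was lower at day 3 (-3.94 ± 1.06). The scavenger receptor Cd36, which macrophages and endothelium also express, was higher at days 7, 60 and 90, at 2.48, 2.51 and 3.20, and lower at day 21, at -2.42. In all, 2, 3, 7, 3, 2 and 3 of 18 were called lower at days 1, 3, 7, 21, 60 and 90, and 0, 0, 1, 0, 3 and 1 higher. Of all genes, 1.37% to 5.63% were lower and 3.18% to 7.00% higher at these times. The mean of the 6 times had 9 of 18 lower and none higher, with a list median of -0.999, where 11.3% of all genes were lower. Without sham replicate 1 and without sham replicate 2, the calls at those 6 times were 0, 1, 3, 0, 1 and 1 and 0, 1, 2, 0, 1 and 1 in either direction, and those for the mean 3 and 4. Cx3cr1, the fractalkine receptor of patrolling monocytes and of microglia, was not called in any comparison, with 53.8 to 742 CPM in stroke libraries against 392 and 149 CPM in sham.

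**Figure D5:**
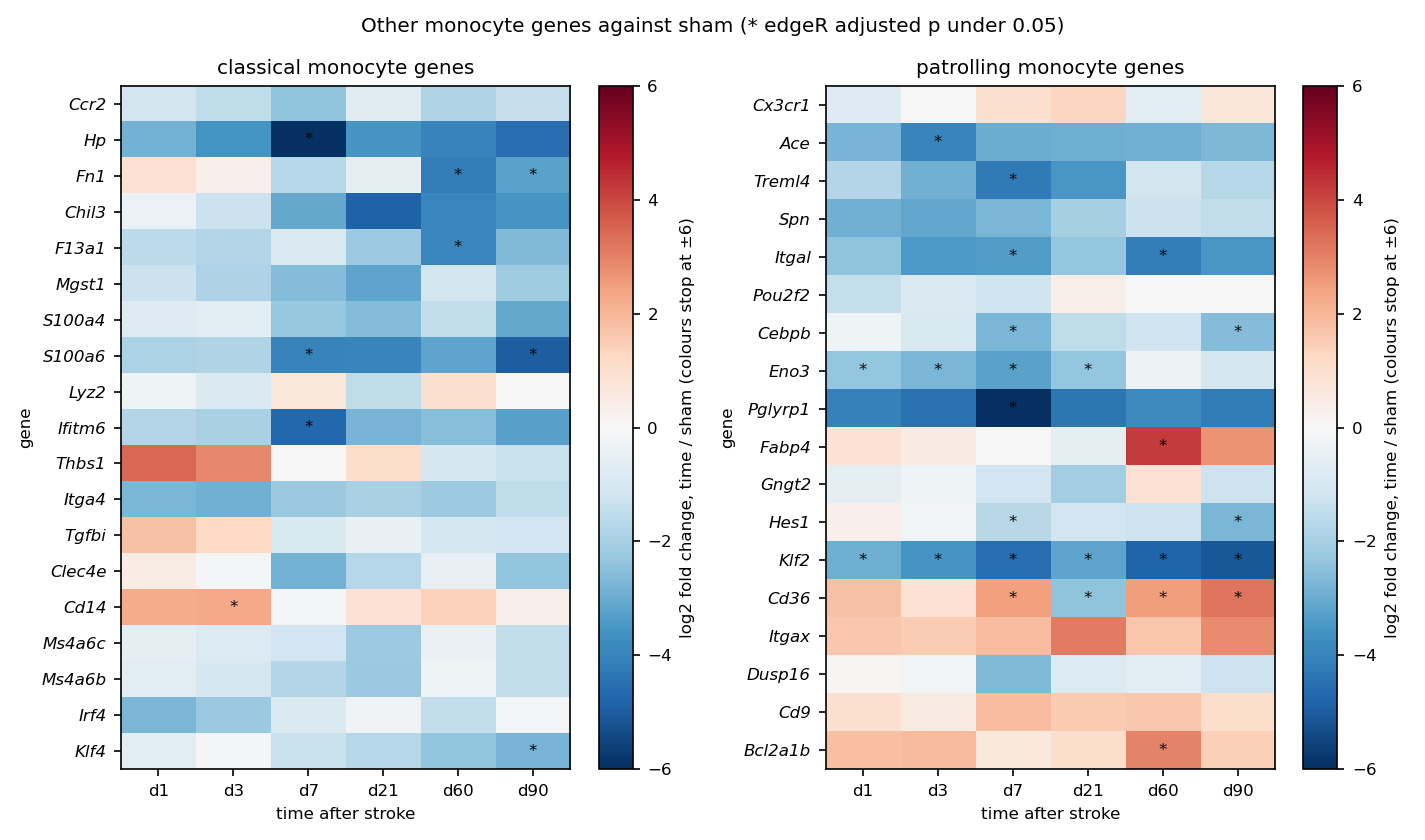
Log2 fold change against sham (colour) of the other classical (left, 19 genes) and patrolling (right, 18 genes) monocyte genes at each time after stroke; an asterisk marks an edgeR adjusted p under 0.05. Klf2 is called lower at all 6 times, Eno3 at days 1 to 21, and Cd36 is called higher at days 7, 60 and 90 and lower at day 21.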

How the data were processed

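The authors deposited gene counts of 14 libraries, 1 table of the series and 1 file per library, which agree in all 14084 genes. Reads were aligned with Bowtie2 2.3.4.2 and counted with HTSeq 0.6.1, with build mm9, per the submitters' processing notes; the sources used here do not state the annotation, the use of strand or how reads matching several places were treated. Groups and replicate numbers came from the sample titles. Genes were filtered with edgeR's filterByExpr by group (223 genes removed), scaled by TMM and fitted with glmQLFit (robust) and glmQLFTest with 1 mean per group and 7 residual degrees of freedom (edgeR 4.0.16, limma 3.58.1, DESeq2 1.42.0, R 4.3.3), and p-values were adjusted by the Benjamini-Hochberg method over 13861 genes in each of 10 comparisons. Library sizes were those of the filtered genes; log2 CPM used a prior count of 2; marker sums are CPM of total counts without TMM. Fold changes are fitted values that carry that model's small prior. A depth of 3 counts was 0.104 to 0.197 CPM in replicate 1 and 0.0157 to 0.0298 CPM in replicate 2 libraries, counting error only.

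The members and lists were chosen with earlier results of these data known. Named genes were all 8 members, the 3 genes most like each (mean log2 CPM of at least 3), up to 3 called genes per list, direction and comparison with the largest change, and a fixed panel; 1 gene of the classical monocyte list is not reported here. Shared stretches of 50 bases were counted in GENCODE M21 transcripts of 14037 genes; no coordinates are given, since that build is not mm9. The 2 libraries of each group differed far beyond sampling noise (chi-square of at least 408 per degree of freedom). Alternatives were DESeq2, limma-voom, DESeq2 size factors, upper-quartile scaling, other filters, a replicate block, each library left out (the lone library of a group is then assumed to vary like the other groups), day 21 left out and, chosen after seeing the data, Ly6c1 and Ly6c2 summed. The fits were also run on simulated counts with known changes. Those counts held no differences shared by a replicate number and no outlying libraries, so they cannot show how the calls behave under either.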

Additional observations from a re-analysis of the deposited data

Results flagged for a closer look

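Cd300e differed between later and earlier times in its effect against sham: the difference of the effects at days 60 and 90 and those at days 1 and 3 was 2.39 ± 0.57 on the log2 scale, the same contrast in which sham cancels (edgeR adjusted p = 0.0496). This call was lost with the replicate block (edgeR adjusted p = 0.0508). It was also lost without any 1 library of sham or days 1, 3, 60 or 90, at 2.11 to 2.80. The test among the 6 times did not call Cd300e (edgeR adjusted p = 0.106). Its level was 52.7 and 30.9 CPM at day 60 and 37.8 and 22.3 CPM at day 90, against 6.81 and 13.2 CPM at day 1 and 6.71 and 2.57 CPM at day 3, so that all 4 later libraries were above all 4 earlier ones. Cd3e, a T cell marker, was 8.47 to 17.0 CPM in those later libraries, against 0 to 0.203 CPM in the earlier ones, and Ccr2, which marks classical monocytes, was 142 to 400.5 CPM against 165 to 397 CPM. The part of lymphocytes in the difference was not tested.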

How the results depend on the processing

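Of 1448 recomputed fold changes of the members, 1300 kept their direction and side of the threshold, 65 were no longer called, 52 became called and 31 changed sign. Only fold changes called in the main fit could lose a call, and most fold changes of the members were not called there. The number of members called at days 1, 3, 7, 21, 60 and 90 was 2, 2, 5, 2, 1 and 5 with DESeq2, which called 5 in the test among the 7 groups and 2 in that among the 6 times. With day 21 left out it was 2, 3, 5, 1 and 3 at days 1, 3, 7, 60 and 90, 3 for days 60 and 90 against days 1 and 3, and 5 and 1 in the tests among groups and among times. limma-voom called 2 at day 21 and 2 at day 90, and at least 1 CPM in 2 libraries gave 0 for later against earlier times. In the replicate block fit 2 members were called at day 90 and 0 for later against earlier times (Cd300e, 2.39, edgeR adjusted p = 0.0508), and Ms4a4c for the mean was at -1.59 (0.0562). Leaving out 1 library at a time gave 0 to 2, 0 to 3, 0 to 5, 0 to 5, 0 to 1 and 0 to 3 members called at days 1, 3, 7, 21, 60 and 90, 1 to 5 for the mean, 0 to 3 for later against earlier times, 0 to 5 among groups and 0 to 3 among times. Over all genes the same fits gave 76 to 1098, 225 to 1815, 355 to 2457, 68 to 2410, 132 to 1750 and 129 to 1800 calls at the 6 times, 702 to 3574 for the mean, 119 to 695 for later against earlier times, 224 to 2185 among groups and 20 to 595 among times. The causes were not tested.

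Signs changed for Vcan at day 21 (-8.36, limma-voom), F10 at day 90 (0.0812, upper-quartile scaling), and Ms4a4c at day 60 (-0.0381, DESeq2 and its size factors) and for later against earlier times (-0.13, limma-voom; -0.10, replicate block). Without single libraries, Ly6c1 ran from -8.10 to 11.08, -7.48 to 10.40, -10.05 to 10.44, -8.36 to 10.05, -9.27 to 11.30 and -9.43 to 8.93 at days 1, 3, 7, 21, 60 and 90, -4.54 to 10.37 for the mean and -4.02 to 2.08 for later against earlier times. Vcan ran from -1.05 to 1.87, -1.96 to 0.22 and -14.45 to 1.62 at days 1, 3 and 21, F10 from -0.37 to 0.0075, -2.79 to 0.57 and -0.25 to 0.10 at days 7, 21 and 90, and Nr4a1 from -1.09 to 0.44 and -0.77 to 0.0783 at days 1 and 21. Ms4a4c ran from -1.92 to 0.23 at day 1, -1.16 to 1.49 at day 60 and -0.50 to 0.42 for later against earlier times.

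Over all genes, edgeR called 631, 1147, 1751, 892, 1088 and 1089 genes at the 6 times, 363 for later against earlier times, 999 among groups and 120 among times; DESeq2 called 1878, 2667, 3158, 2447, 2653, 2616, 1158, 3475 and 1276. limma-voom called 1696 at day 21, 707 for later against earlier times, 651 among groups and 181 among times. The replicate block gave 1195, 2002, 2766, 1584, 1953, 2006, 611, 1635 and 184, and leaving out day 21 gave 1093, 1802, 1749 and 1796 at days 1, 3, 60 and 90, 676 for later against earlier times, 1797 among groups and 273 among times. Upper-quartile scaling moved the median of all genes by up to 0.22 (day 21). The deviations of replicate 1 libraries from the group means correlated at 0.071 to 0.677 over 21 pairs of groups, median 0.374. All 21 were above 0 and 20 were over 0.1, and every library correlated best with its own number. The main model has no term for the replicate number, so differences shared by a replicate number stay in its estimate of spread. At the depth of replicate 1 libraries 3 counts were 0.104 to 0.197 CPM; a sham group of 2 libraries limits every comparison with it.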

Other observations

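The families of the members did not all move the way the members did. In the MS4A family, 10 of 12 listed genes were tested, and Ms4a7, a macrophage gene, was higher than in sham at all 6 times, from 3.82 ± 1.00 on the log2 scale at day 21 to 8.25 ± 1.22 at day 60, while Ms4a1, the B cell antigen CD20, was lower at days 1, 3 and 7, at -6.07, -7.58 and -6.28. Ms4a6d was higher at days 1, 3 and 60, at 3.14, 3.00 and 2.71. In the CD300 family 5 of 7 genes tested were lower for the mean of the 6 times and none higher, led by Cd300lb (-2.66 ± 0.47), Cd300ld (-2.38 ± 0.41) and Cd300lf (-2.22 ± 0.52). Of all genes, 11.3% were lower and 8.56% higher. The CD300 genes not called, and some MS4A genes not called, were higher in every replicate 2 library than in every replicate 1 library, as Ly6c1 was. Their direction against sham could not be read from these counts. Among the Ly6 family, Ly6d, known from B cells and plasmacytoid dendritic cells, was lower at days 1, 3 and 7, with means of 0.0906, 0.0116 and 0.219 CPM against 16.4 CPM in sham, and Ly6i at days 3 and 7 (-2.79 and -4.01). Ly6a and Ly6e were not called against sham. At single times, 1.37% to 5.63% of all genes were lower and 3.18% to 7.00% higher. Without sham replicate 1 and without sham replicate 2, the MS4A calls, 3, 3, 2, 1, 2 and 2 in either direction with all libraries, were 1, 1, 1, 0, 1 and 0 and 1, 2, 2, 0, 1 and 0 at days 1, 3, 7, 21, 60 and 90, and the CD300 count for the mean was 2 and 2. The Ly6 calls at days 1, 3 and 7 were 1, 2 and 2 without sham replicate 1, as with all libraries, and 0, 1 and 0 without sham replicate 2; Ly6i was 24.4 and 114 CPM in the sham libraries.

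Nr4a2, the closest relative of Nr4a1, went the other way from the values of Nr4a1: it was higher than in sham at days 1, 3, 7, 21 and 60, at 3.25, 3.27, 2.23, 2.18 and 2.04, with 8.18 to 44.5 CPM in stroke libraries against 4.18 and 2.71 CPM in sham. Nr4a3 was not called. Of 16 immediate early genes 5 were lower at day 7, led by Btg2 (-3.15 ± 0.76), and 4 at day 90, led by Egr1 (-3.89 ± 0.65), with Ier3 higher at days 1 and 3 (3.96 and 3.58). Of all genes, 5.63% were lower at day 7 and 2.73% at day 90. Fos was not called against sham. Among 16 coagulation genes tested, F9 was higher at all 6 times (3.22 to 4.95), though at 1.90 to 6.25 CPM on average at each time against 0.198 CPM in sham, and F5 was lower at day 7 (-5.44 ± 1.29). Of 11 genes of hyaluronan and related proteoglycans tested, the hyaluronidases Hyal1 and Hyal2 were higher at all 6 times. Over the 6 times, 1.37% to 5.63% of all genes were lower and 3.18% to 7.00% higher. Of 20 interferon-stimulated genes 10 were lower at day 90, led by Oas2 (-3.79 ± 0.90). At day 60 edgeR called Ifi44 alone, which was higher (3.51 ± 0.74), a call lost without either sham library. At that time 6 of the 20 had an unadjusted p under 0.05, DESeq2 called 2 and limma-voom 1, and DESeq2 called more of all genes than edgeR. These counts too rested on both sham libraries: without replicate 1 and without replicate 2, the Nr4a and immediate early genes called were 0 and 0 at days 1, 3 and 21, 0 and 3 at day 7, 1 and 1 at day 60 and 1 and 2 at day 90, the interferon-stimulated genes 1 and 1 at day 90, the coagulation genes 0 and 1 at days 3 and 7 and 0 and 0 at days 1, 21, 60 and 90, and the hyaluronan genes 0 at every time.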
